A study of Mus musculus with 6 samples.

Results

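The carriers that move drugs, bile constituents and other small molecules across liver cell membranes were taken here as every gene on the array whose symbol starts with Slco, Slc22a, Abcb or Abcc followed by a digit. The rule found 61 of 24239 genes with a symbol, measured by 81 probes. Of these, 41 belong to the uptake families Slco and Slc22a and 20 to the efflux families Abcb and Abcc. Liver RNA came from male B6C3F1 mice aged 7 weeks that had received by mouth either corn oil (control, 3 mice) or TCE, the solvent trichloroethylene, dissolved in corn oil at 1000 mg/kg b.w. daily for 5 days (3 mice). The RNA of each mouse was hybridized to a 1-colour array of its own and none was pooled. The array of control 1 was alone on its slide, and the other 5 arrays shared a slide.

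Hepatocytes take up solutes from sinusoidal blood with carriers of the SLC superfamily, among them the organic anion transporting polypeptides (Slco) and the organic cation, anion and carnitine transporters (Slc22a). ATP-driven pumps of the Abcb and Abcc families then export bile salts, phospholipids, conjugates and drugs across the canalicular membrane into bile or across the basolateral membrane back into blood. The split by family is nominal, since some Slc22a proteins exchange in both directions and some Abcb and Abcc proteins sit in mitochondria, lysosomes or ion channels.

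Values are log2 intensities after quantile normalization, and a change is the TCE mean minus the control mean on that scale, with the standard error (SE) of the fit. To count as detected, a gene needed a signal well above background in each of the 3 mice of control, of TCE or of both, and 13284 genes had one. Between 23538 and 24934 probes per control mouse and between 23573 and 24968 per TCE mouse were well above background, and 0 spots were saturated. A gene with several detected probes was read from the brightest. Genes are called past the threshold where limma gave an adjusted p of 0.05 or less (Benjamini-Hochberg, over all detected probes) together with a fold change of 2 or more.

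More of the efflux than of the uptake families was detected. Among uptake genes 22 of 41 were detected (7 of 15 Slco and 15 of 26 Slc22a), and among efflux genes 17 of 20 (9 of 10 Abcb and 8 of 10 Abcc). Of the 22 genes that were not detected, 19 were well above background on none of the 6 arrays, including Slc22a3, an organic cation carrier. The remaining 3 reached that level on some arrays, namely Slc22a29 in 2 TCE mice, Abcc1 in 1 TCE mouse and Abcb5 in control 1. Slc22a27 and Slco4a1 were detected only through the TCE mice and Abcb1b only through the control mice, so their entry into the counts below was not independent of their difference.

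Past the threshold were 5 of the 22 uptake genes, beside 1.73% of all detected genes. Of these, 2 were higher in TCE mice (Slc22a5 and Slc22a27), where 1.30% of all genes were, and 3 were lower (Slco1a4, Slco2a1 and Slc22a28), where 0.429% were. The call of Slc22a27 rests on control signals that were not well above background. Among the 17 efflux genes limma called 0. By the methods' t-test at a fold change of 2 the efflux count was also 0, adjusted or not, while 3 efflux and 11 uptake genes had an unadjusted limma p under 0.05, which 19.1% of all genes had. With no minimum fold change, 1 efflux gene (Abcb4) and the same 5 uptake genes had an adjusted p of 0.05 or less, beside 2.39% of all genes. With no filter on dim probes the adjusted p of the 5 uptake genes was 0.0626 to 0.123, and by the methods' t-test after adjustment 0 of them passed. The values of the groups did not overlap for 13 uptake genes (5 higher and 8 lower) and 4 efflux genes (3 higher and 1 lower), beside 27.9% of all detected genes.

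The median change was −0.18 over the detected uptake genes, −0.04 over the efflux genes and 0.02 over all detected genes. With each gene set against its control mean, the uptake median was 0.01, 0.02 and −0.03 in control mice 1 to 3 and −0.29, −0.02 and −0.21 in TCE mice 1 to 3. For efflux it was 0.03, −0.03 and −0.03 in control mice and 0.00, 0.04 and −0.02 in TCE mice. The pooled medians hid differences between families. The Slco median was 0.02, −0.04 and 0.07 in control mice and −0.36, −0.48 and −0.18 in TCE mice, so all TCE mice were below the controls. The Slc22a median was −0.21, 0.22 and −0.24 in TCE mice, above the controls in TCE 2 and below them in the others. Among efflux genes, the Abcb median was 0.03, −0.03 and −0.03 in control mice and −0.14, −0.04 and −0.23 in TCE mice, all below the controls, TCE 2 only slightly. The Abcc median of each TCE mouse (0.00, 0.05 and 0.01) was within the control range of −0.07 to 0.06. The efflux minus uptake difference of the median changes was 0.14, and it was 0.20 with the 20 uptake and 16 efflux genes that were above background on all 6 arrays but −0.02 with no filter on dim probes. Members are not replicates, and no test was made of this difference. Slc22a27 and Slco4a1 lie above the uptake median also when set at the limits given below, but with both left out the uptake median was −0.22.

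**Figure D1:**
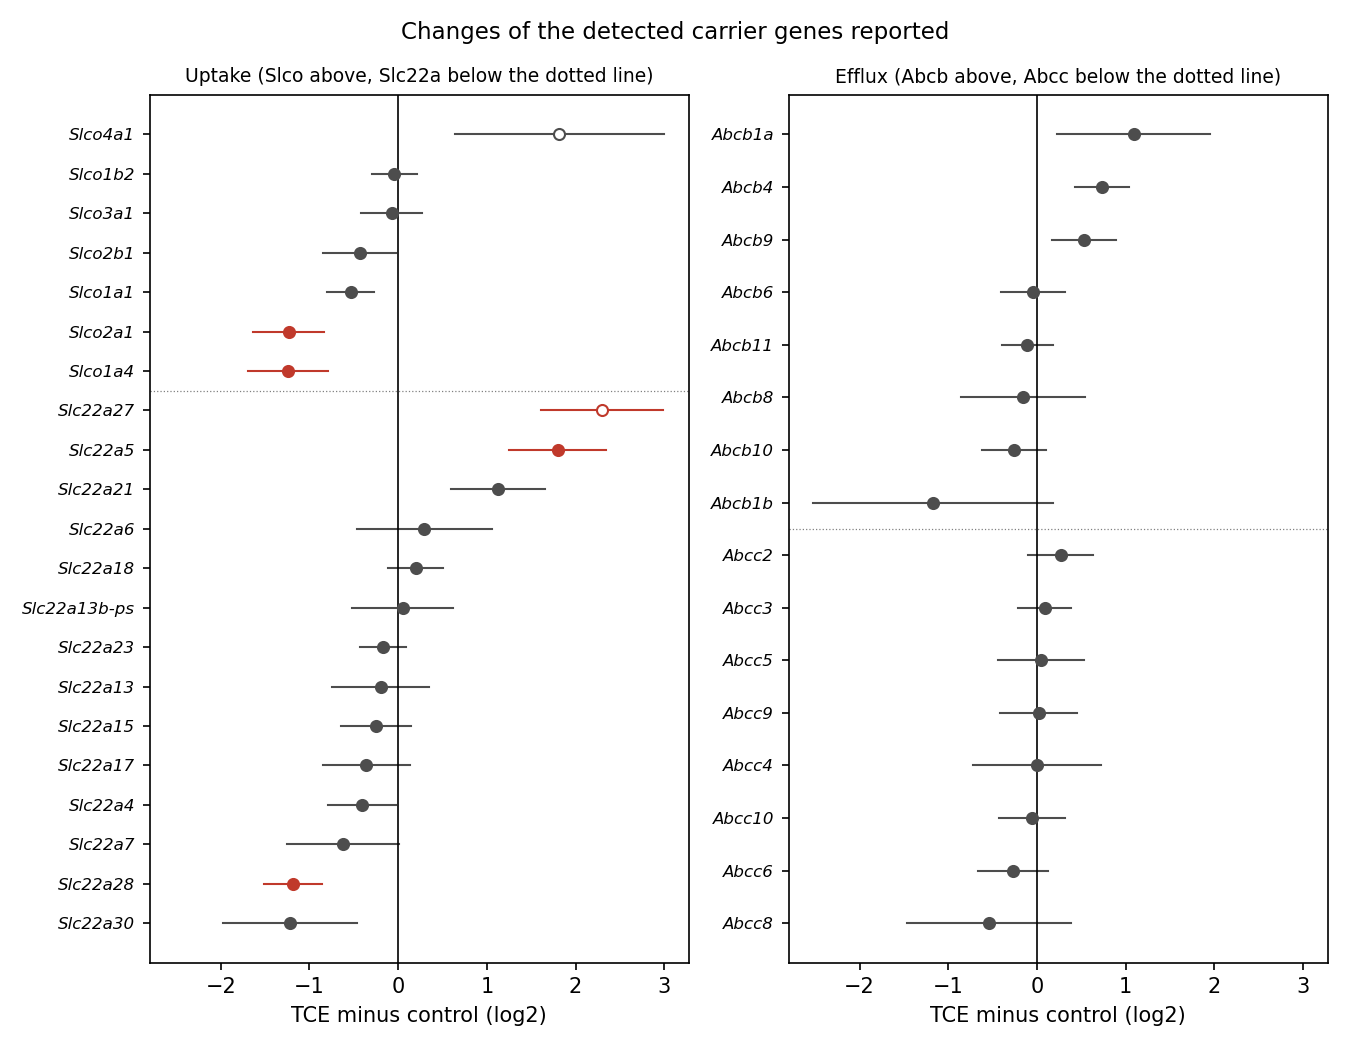
Changes of the detected carrier genes reported here, TCE minus control on the log2 scale (points), with the 95% confidence interval of limma (bars), for uptake families on the left and efflux families on the right. Red marks the 5 genes past the threshold, all in uptake families, and open points mark Slc22a27 and Slco4a1, whose control signals were not well above background.

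Among the organic anion transporting polypeptides, Slco1a4 is a basolateral carrier of bile salts, steroid conjugates and cardiac glycosides. Its values were 9.18, 9.06 and 9.49 in control mice 1 to 3 and 8.21, 7.69 and 8.09 in TCE mice 1 to 3. All TCE mice were below all control mice, TCE 2 being the lowest. The change was −1.24 ± 0.19 (SE), or 2.37-fold lower, at an adjusted p of 0.0328. This call needed all 6 mice, since the adjusted p was 0.0657 to 0.106 with any 1 of them left out at changes of −1.35 to −1.09. With the slide as a block it was 0.10 at a change of −1.27, and after normexp background correction the change was −0.99, just under 2-fold. Control 1 was alone on its slide, so a fit with the slide as a block gives the same change as leaving control 1 out. For every gene below it is therefore no separate check, and an effect of slide cannot be told apart from that mouse.

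Slco2a1 encodes the prostaglandin transporter, which clears prostaglandins from the extracellular space. It read 13.44, 13.32 and 13.14 in the controls and 11.80, 12.31 and 12.07 in TCE mice. Each TCE mouse was lower than each control mouse by more than the spread within either group. Slco2a1 fell by 1.23 ± 0.17 (2.35-fold, adjusted p 0.0256). The adjusted p was 0.0365 without TCE 2, 0.0708 to 0.118 without any other mouse and 0.0882 with the slide as a block.

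Slco1a1, a carrier of organic anions that is more abundant in male than in female mouse liver, measured 12.91, 12.97 and 12.79 in control mice and 12.32, 12.41 and 12.34 in TCE mice. The groups were tight and apart, but the difference was under 2-fold (−0.53 ± 0.11) and its adjusted p was 0.0740. Slco2b1, which carries steroid sulfates, was lower in every TCE mouse on both of its probes, with differences of −0.43 and −0.40 and adjusted p of 0.263 and 0.203; without TCE 2 the first was −0.27. In contrast, Slco1b2, the main basolateral carrier of unconjugated bile acids and many drugs in mouse hepatocytes, read 16.37, 16.37 and 16.50 in controls and 16.38, 16.35 and 16.38 in TCE mice. The values overlapped, and the 95% interval of the change was −0.30 to 0.21. Slco4a1, a carrier of thyroid hormone, was well above background in the 3 TCE mice (5.34, 5.67 and 5.66) but in none of the controls (4.14, 4.52 and 2.56). The fitted change, which uses these control signals, was 1.82 at an adjusted p of 0.135, and after normexp background correction it was 0.46. As a limit, Slco4a1 was at least 1.71-fold higher in TCE mice. Such a limit sets the TCE mean against the mean, over the control arrays, of the lowest signal called well above background, replaced by what the probe itself read if it read more. The remaining detected member, Slco3a1, changed by −0.07 and −0.01 on its 2 probes. In liver tissue measured as a whole, fewer cells of a type and less RNA per cell cannot be told apart.

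The carnitine and organic cation carriers of the Slc22a family include 3 neighbours on chromosome 11. Slc22a5, the sodium-dependent carnitine transporter OCTN2 that supplies carnitine for mitochondrial fatty acid oxidation, lies with its probe at chr11:53678550-53678609 on mm9. Its values were 7.92, 7.53 and 7.38 in control mice and 9.47, 9.72 and 9.04 in TCE mice. The lowest TCE mouse was above the highest control mouse by more than the range of either group. The change was 1.80 ± 0.23, or 3.48-fold, at an adjusted p of 0.0207. The adjusted p was 0.0424 with the slide as a block and 0.0461 without control 1, 2 fits that give the same change of 1.95. It was 0.0302 without TCE 3, but 0.0540 without TCE 2, 0.0840 without control 3, 0.0869 without TCE 1 and 0.10 without control 2.

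Slc22a21 (OCTN3), another carnitine carrier, has its probe at chr11:53764508-53764567. Its signals were 5.84, 6.29 and 5.94 in control mice and 7.15, 7.51 and 6.79 in TCE mice. Here too the groups were apart, with the same order of TCE mice as for Slc22a5. The difference was 1.13 ± 0.22 (2.18-fold), and with an adjusted p of 0.0673 it missed the threshold. After normexp background correction the difference was 0.67, under 2-fold. Of their neighbour Slc22a4 (OCTN1), an ergothioneine transporter with its probe at chr11:53796841-53796900, the values were 0.41 lower on average and below the controls in every TCE mouse, with an adjusted p of 0.260. The differences between these 3 genes were not tested.

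Slc22a18, a member of the imprinted gene cluster on chromosome 7, differed by 0.20 ± 0.13 with overlapping groups. Slc22a7 (OAT2), a carrier of organic anions and nucleobases, read 13.74, 14.43 and 14.50 in control mice and 13.81, 13.22 and 13.77 in TCE mice. Control 1 lay among the TCE mice, and the difference was −0.62 ± 0.26 (adjusted p 0.286), or −0.87 without control 1.

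A second group of neighbours, the rodent organic anion transporters Slc22a26 to Slc22a30, lies on chromosome 19, and the substrates of most are poorly known. Slc22a28 has its probe at chr19:8136749-8136808 and a value of 12.18, 12.35 and 12.44 in control mice against 11.13, 11.29 and 10.98 in TCE mice. The groups were far apart relative to their spread. Slc22a28 fell by 1.19 ± 0.14 (2.28-fold, adjusted p 0.0145), and a second probe fell by 0.99 with an adjusted p of 0.0163. Leaving out control 2, control 3 or TCE 1 raised the adjusted p to between 0.0665 and 0.0855, and it was 0.0433 with the slide as a block.

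Slc22a30, with its probe at chr19:8417813-8417872, had signals of 10.81, 10.56 and 11.36 in controls and 9.65, 10.21 and 9.21 in TCE mice. Every TCE mouse was lower, but the mice of both groups scattered more than for Slc22a28, and the difference of −1.22 ± 0.31 had an adjusted p of 0.122. Slc22a27 went the other way: its probe, at chr19:7938881-7938940, was well above background in the TCE mice (5.33, 5.66 and 5.19) but in none of the controls (3.57, 2.51 and 3.19). The fitted change, which uses these control signals, was 2.30 at an adjusted p of 0.0202. As a limit, Slc22a27 was at least 1.52-fold higher in TCE mice, and this adjusted p does not belong to that limit. This limit does not reach 2-fold, the gene entered the test only through the TCE mice, and 4 members were past the threshold when a signal on all 6 arrays was required, which left it out. The adjusted p was 0.0293 with the slide as a block and 0.0530 to 0.0817 without control 3 or any 1 of the TCE mice, and after normexp background correction the change was 0.63. Slc22a29 showed the same direction, with control values of 2.83, 2.76 and 2.78 and TCE values of 5.09, 5.31 and 4.70, but only 2 of these 6 signals, both from TCE mice, were well above background and the gene was not tested. The coding sequences of these genes are alike, and whether a probe also bound RNA of a neighbouring gene was not tested.

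The bases upstream of these genes are shown because neighbours in the cluster had values on opposite sides of the controls. RefSeq promoter windows on GRCm38.p6 matched 49 of the 61 member genes and 29 of the 39 detected ones, and the 250 bases before the annotated start are given here, 5′ to 3′ on the strand of the gene. Among all 406 pairs of detected members with a window, Slc22a28 and Slc22a30 had the most identical bases, 238 in 244 aligned. Next by that count came Abcc4 and Slc22a23, with 130 of 191. Slc22a29, which was not detected, matched Slc22a28 at 172 of 213 aligned bases and Slc22a30 at 174 of 221, although its signals lay on the other side of the controls. Capitals in these 3 mark the longest run that all of them share, 16 bases.
Slc22a28, chr19:8131983-8132232, minus strand: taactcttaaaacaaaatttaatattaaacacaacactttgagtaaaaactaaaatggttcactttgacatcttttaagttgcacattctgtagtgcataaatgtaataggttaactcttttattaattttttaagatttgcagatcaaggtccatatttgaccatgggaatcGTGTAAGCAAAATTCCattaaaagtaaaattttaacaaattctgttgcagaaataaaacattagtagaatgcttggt
Slc22a30, chr19:8405106-8405355, minus strand: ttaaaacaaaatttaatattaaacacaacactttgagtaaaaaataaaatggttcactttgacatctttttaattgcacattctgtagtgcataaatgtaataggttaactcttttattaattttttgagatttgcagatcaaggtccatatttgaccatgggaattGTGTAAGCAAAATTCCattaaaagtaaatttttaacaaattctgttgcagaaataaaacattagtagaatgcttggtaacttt
Slc22a29, chr19:8218901-8219150, minus strand: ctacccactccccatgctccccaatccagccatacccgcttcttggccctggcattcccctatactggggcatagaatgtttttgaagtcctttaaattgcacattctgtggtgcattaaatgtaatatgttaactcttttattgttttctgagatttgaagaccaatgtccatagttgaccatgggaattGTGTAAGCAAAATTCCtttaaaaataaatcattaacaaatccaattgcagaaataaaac

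The window of Slc22a27 aligned with that of Slc22a28 over 13 bases only. Searched on both strands for AGGTCA, the core that nuclear receptors bind, for that core repeated after 1 base, and for TGACNNNGC, the core of the antioxidant response element, it held 1 AGGTCA in reverse and 2 TGACNNNGC, which do not overlap and are in capitals.
Slc22a27, chr19:7966028-7966277, minus strand: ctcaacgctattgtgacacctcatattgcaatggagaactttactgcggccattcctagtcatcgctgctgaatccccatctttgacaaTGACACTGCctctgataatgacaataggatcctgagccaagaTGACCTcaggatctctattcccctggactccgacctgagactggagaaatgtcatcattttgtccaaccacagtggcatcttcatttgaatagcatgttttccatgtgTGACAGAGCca

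Of all 32851 windows of this length, 14% held AGGTCA, 0.0335% its repeat and 10.2% TGACNNNGC. Of the 20 windows of detected uptake genes 4 held AGGTCA and 1 held TGACNNNGC, and of the 14 windows of detected efflux genes 5 and 4 did. The repeat was in 0 of these 34 windows. None of the 3 motifs was in the windows of Slc22a5, Slc22a28, Slc22a30, Slco1a4, Slco2a1 or Abcb4. A match or its absence describes the letters of these windows and no more.

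The other detected Slc22a genes, which include the urate and anion carriers Slc22a6 and Slc22a13 and the pseudogene Slc22a13b-ps, had changes from −0.36 for Slc22a17 to 0.30 for Slc22a6. Their adjusted p was 0.420 or more, and only for Slc22a23, 0.17 lower, did the groups not overlap.

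On the efflux side, the canalicular pumps were considered first. Abcb11, the bile salt export pump, had values of 15.11, 15.13 and 15.10 in control mice and 14.91, 14.93 and 15.18 in TCE mice. TCE 3 lay above and the other TCE mice below the controls, and the difference was −0.11 ± 0.12, with a 95% interval of −0.40 to 0.18. Abcc2 (MRP2), which exports conjugates such as bilirubin glucuronide, read 12.71, 12.55 and 12.33 in control mice and 12.82, 12.96 and 12.62 in TCE mice. These groups overlapped, and the difference of 0.27 ± 0.15 had an adjusted p of 0.420.

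Abcb4, the phospholipid floppase that brings phosphatidylcholine into bile, was the efflux gene with the smallest adjusted p. Its control values were 14.45, 14.49 and 14.42 and its TCE values 15.10, 15.39 and 15.08. All TCE mice were above the narrow control range. The change was 0.74 ± 0.13 (1.67-fold, adjusted p 0.0465), so Abcb4 was higher but did not reach a fold change of 2. A second Abcb4 probe was higher in every TCE mouse as well, by 0.84, with an adjusted p of 0.215. With any 1 mouse left out the adjusted p of the first probe was 0.0791 to 0.164, it was 0.134 with the slide as a block, and the difference was 0.64 to 0.79. When arrays were scaled by their 75th percentile instead, it was 0.0549.

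Abcb1a and Abcb1b, the paired mouse genes of P-glycoprotein, which exports lipophilic drugs, are neighbours of Abcb4 on chromosome 5. Abcb1a had signals of 5.77, 5.05 and 6.0 in control mice and 7.35, 6.41 and 6.33 in TCE mice. The groups did not overlap, TCE 1 was the highest, and the difference was 1.09 ± 0.36 (adjusted p 0.192). It was 0.45 after normexp background correction and 0.76 without TCE 1. Abcb1b had values of 7.20, 5.45 and 5.22 in control mice and 5.00, 5.19 and 4.17 in TCE mice, of which TCE 3 was not well above background. Control 1, the mouse on the other slide, stood far above the rest, and the difference was −1.17 ± 0.56 (adjusted p 0.341) with it, −0.55 without it and −0.44 after normexp background correction. How far the probes of these near-identical genes share RNA was not tested.

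**Figure D2:**
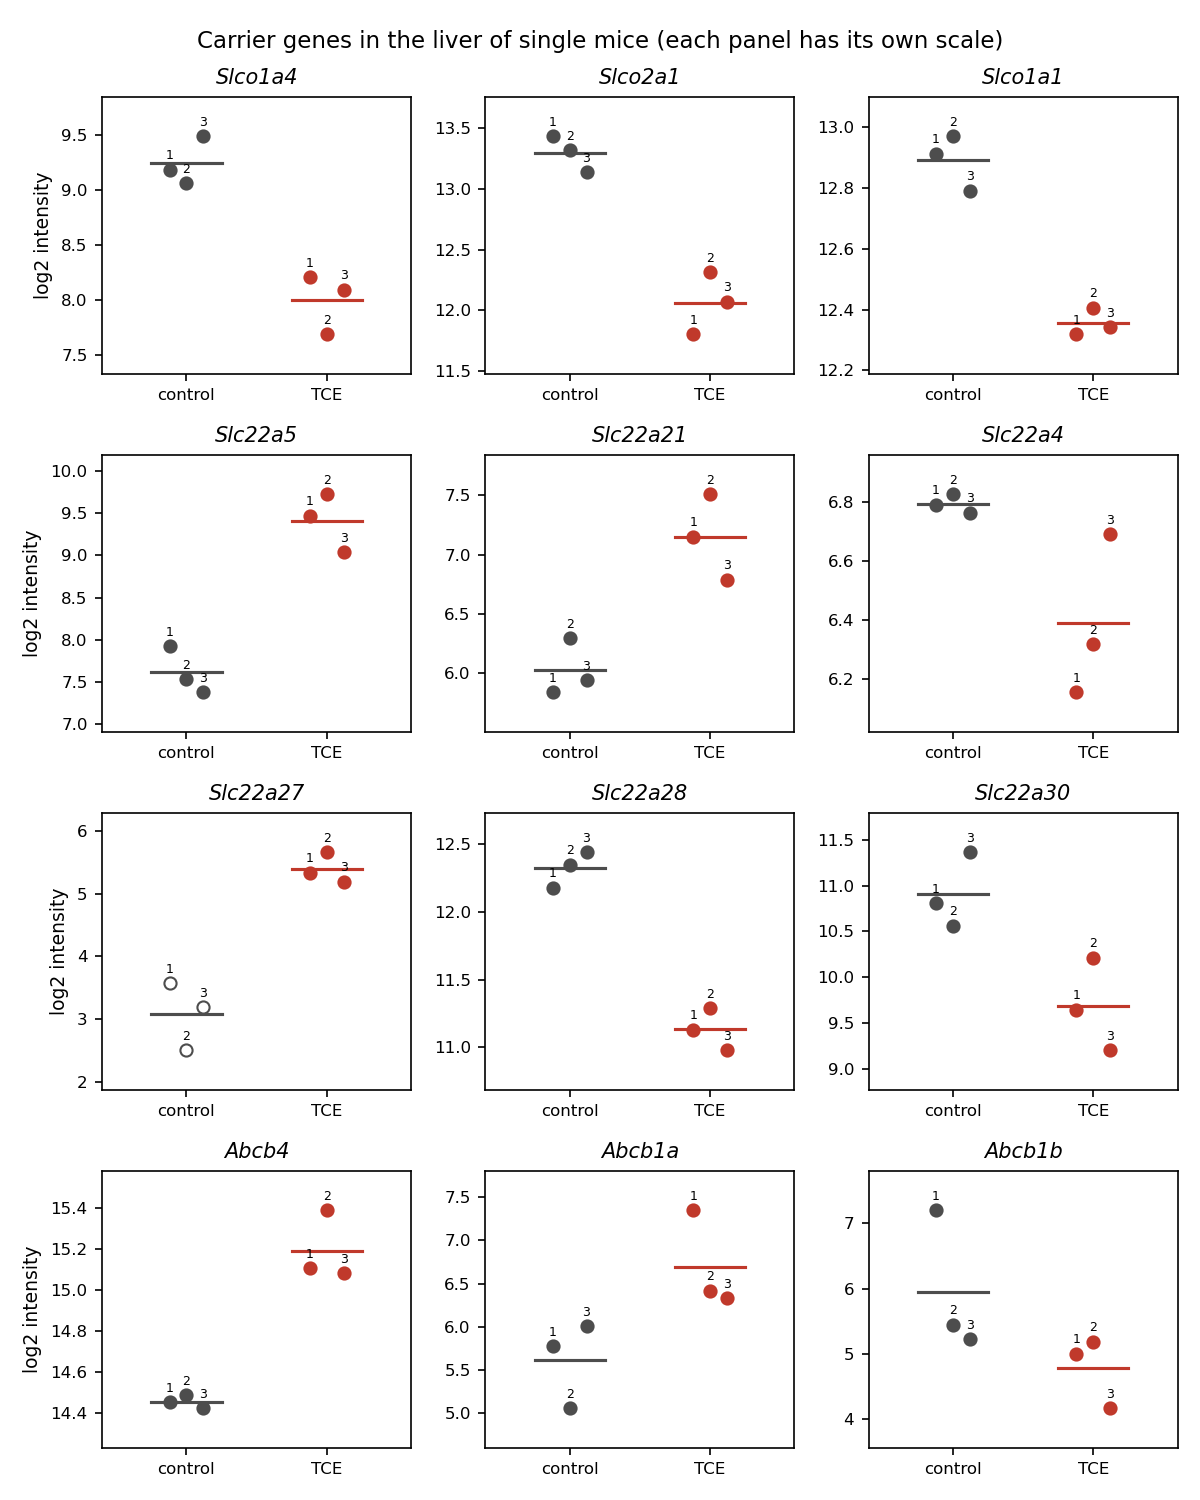
Log2 intensity of 12 carrier genes in each control mouse (grey) and TCE mouse (red), with mouse numbers beside the points and the group mean as a line; each panel has its own scale, which does not start at 0. All 12 are among the 17 of 39 detected members whose groups do not overlap, beside 27.9% of all detected genes, so the panels do not show a typical member. Open points mark a group with no mouse well above background (Slc22a27 in controls), and for Abcb1b control 1 stands apart and TCE 3 was not well above background.

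The pumps of the basolateral membrane showed small differences. Abcc3, which returns glucuronides to blood, was 14.15, 14.15 and 14.17 in control mice and 14.12, 14.43 and 14.19 in TCE mice. TCE 2 alone was clearly above the controls, and the 95% interval of the change was −0.21 to 0.38. Abcc4, a pump of cyclic nucleotides and bile acid conjugates, had 6.05, 6.62 and 5.43 in controls and 6.03, 5.87 and 6.20 in TCE mice. The TCE mice lay within the wide control range, so the interval of −0.72 to 0.72 was wide and its difference of 0.00 ± 0.30 took either sign under other settings. Abcc6, the ATP-releasing pump that limits ectopic mineralization, differed by −0.27 ± 0.17 and by −0.22 on a second probe, with overlapping groups on both.

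None of the other efflux genes had an adjusted p under 0.146. Abcb9, a lysosomal peptide transporter, was higher in all 3 TCE mice by 0.53 ± 0.15. The mitochondrial and porphyrin-linked members Abcb6, Abcb8 and Abcb10 differed by −0.04, −0.16 and −0.26, and a second probe of Abcb8 by 0.03. Abcc8 and Abcc9, the sulfonylurea receptors of potassium channels, differed by −0.54 and 0.02, and Abcc5 and Abcc10 by 0.05 and −0.06. In all of these except Abcb9 the groups overlapped, and over the 8 detected Abcc genes the groups of 0 did not.

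Hepatic carriers outside the 4 families were listed for comparison. Of 16 on the array 12 were detected and 0 were past the threshold, 5 were higher and 2 lower in every TCE mouse, and the median change was 0.07. Among all 13284 detected genes, 1.73% were past the threshold, and the groups did not overlap for 2269 that were higher and 1437 that were lower in TCE mice. Slc10a2, the apical bile acid carrier, was 0.68 ± 0.17 higher (adjusted p 0.122) and Slc16a1, a carrier of lactate and ketone bodies, differed by −0.84 ± 0.23 (adjusted p 0.135). Slc16a1 was well above background in all 3 control mice but only 2 TCE mice, so it entered the test only through the controls and the size of its difference is uncertain. The pumps Abcg2, Abcg5 and Abcg8 were higher in every TCE mouse by 0.40, 0.52 and 0.46, all at an adjusted p of 0.135 or more. Of the 6 scaffold genes that anchor carriers in the membrane 0 were past the threshold and 3 were lower in every TCE mouse, among them Pdzk1 by −0.21 and Slc9a3r2 by −0.46.

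Bile acid synthesis genes were lower in every TCE mouse for 5 of 6, with a median of −0.64, and 1 was past the threshold, Cyp7b1 of the oxysterol pathway (−1.43 ± 0.24, adjusted p 0.0440). Among all 13284 detected genes, 1437 were lower without overlap of the groups, and 0.429% were past the threshold and lower. Cyp7a1, the rate-limiting enzyme, had control values of 9.36, 8.20 and 10.14 and TCE values of 7.66, 5.75 and 6.79. The groups were apart but scattered widely, and its adjusted p was 0.118. Of the 16 receptors and factors known to regulate carriers 0 were past the threshold, with a median of −0.01. The largest differences among them were those of Fgfr4 (−0.57, adjusted p 0.0720), the receptor of the ileal hormone FGF15, of Ahr (−0.53, 0.207) and of Ghr, the growth hormone receptor (−0.46, 0.113). Nr1i2, which encodes PXR, was 0.42 higher with an adjusted p of 0.151.

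Reference targets of the receptors were counted beside these. Of all detected genes, 1.30% were past the threshold and higher and 0.429% were past it and lower. Of 10 PPARalpha targets 7 were past the threshold, all higher, with a median change of 3.06, for example Cyp4a14 at 5.42 and Ehhadh at 3.26. Of 5 CAR and PXR targets on the array 1 was past it, Akr1b7, at least 3.36-fold higher in TCE mice from controls that were not well above background, while Cyp2b10 was higher in every TCE mouse by 2.48 with an adjusted p of 0.0886. For NRF2 targets 0 of 7 were past it. Of these, Hmox1 and Srxn1 were higher in every TCE mouse, by 1.03 and 0.43 (adjusted p 0.139 and 0.130), and for the others the groups overlapped. For AHR targets 0 of 3 detected were past it, although Cyp1a2 was 0.90 lower with an adjusted p of 0.0355. Male-biased liver genes were past it for 2 of 7, both lower (Hsd3b5 and Cyp7b1), and of 5 female-biased genes on the array 1 was detected, with 0 past it. Their part in the changes of the carriers was not tested.

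The tissue label was checked against cell type markers. All 7 hepatocyte markers were detected, 0 were past the threshold, and their summed log2 intensity, to which Alb and Serpina1a contributed most, was 20.63, 20.57 and 20.58 in control mice and 20.45, 20.54 and 20.54 in TCE mice. Of these, Apoa1 and Cps1 were lower in every TCE mouse, by 0.31 and 0.42, with adjusted p of 0.215 and 0.352. Among all 13284 detected genes, 1437 were lower without overlap of the groups. Kidney tubule markers, relevant since several Slc22a genes are renal, were detected for 0 of 5. Bile duct markers were detected for 3 of 5 (Krt7 and Epcam were not) and lymphocyte markers for 2 of 5. The summed endothelial markers, led by Stab2 and Kdr, were 13.41, 13.58 and 13.60 in controls and 12.82, 13.33 and 13.40 in TCE mice. Every TCE mouse was below the controls, TCE 3 barely. Of the 5 endothelial markers detected, only Stab2 was itself lower in every TCE mouse (−0.54, adjusted p 0.345). Summed stellate cell markers, led by Col1a1, were 10.35, 9.96 and 9.70 against 9.68, 10.13 and 9.13. Of the 4 detected, only Lrat was lower in every TCE mouse (−1.35, adjusted p 0.0676). The groups overlapped for Reln (−1.34), Col1a1 (0.25) and Pdgfrb (−0.17). Macrophage markers, led by Cd5l, summed to 14.19, 14.18 and 14.01 against 13.97, 13.93 and 14.31. No marker of these lists was past the threshold, beside 1.73% of all detected genes, and for lists this short a count of 0 says little about cell composition. The part of cell composition in the lower Slco2a1 and Slco1a4 values was not tested.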

How the data were processed

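Liver RNA of 3 control and 3 TCE mice was measured, with groups and mouse numbers taken from the labels; sample titles and file names count the mice 1 apart, so the numbers within a group may be shifted, which would leave the groups as they are. Agilent Feature Extraction 10.7.1.1 was the authors' software, and the processed intensity of every spot, with background removed, was read from the deposited scanner files. The authors also deposited a table of group mean intensities and of group means of quantile-normalized log2 values, with gene symbols and probe positions on mm9; 6 columns of flags in it, whose names fit more than 1 label, were not used. Control spots and spots with outlier flags were left out, log2 was taken without adding a constant, replicate spots were averaged by probe, and quantile normalization followed. These group means lay within 0.01 of the authors' for 100% of the member probes. The limma package (version 3.58.1, R 4.3.3, with the data.table package in version 1.17.8) fitted the detected probes with a term for treatment alone and gave moderated t-tests; the code had first been tested on simulated data. A probe was detected if well above background on all arrays of a group, and the threshold was an adjusted p of 0.05 and a fold change of 2. The brightest detected probe represented its gene. Alternatives changed normalization, background correction, the filter, the block, the test and the mice used. Promoter windows are from RefSeq and were aligned with Biopython 1.88 (global, free ends). Named genes are the detected members past the threshold or at an adjusted p of 0.05 or less, 18 carriers of liver fixed by name, the 5 largest rises and falls, and in other lists those past the threshold and up to 6 with large changes; other members are named only to account for them. The members and lists were chosen with earlier results of these data known. Results of some members are not reported here, but the counts and medians include them.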

Additional observations from a re-analysis of the deposited data

How the results depend on the processing

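Alternatives moved the count of 5 members past the threshold (2 higher and 3 lower in uptake, 0 in efflux) as follows. It was 3 after normexp background correction (1 higher) and 3 with the slide as a block (1 lower), 1 with no filter on dim probes (1 higher, 0 lower), and 4 with the filter on all 6 arrays (1 higher, 3 lower). The slide block gives the changes found without control 1, the only mouse on its slide, so it is no separate check. The methods' t-test gave 8 unadjusted (4 higher) and 0 after adjustment (0 higher, 0 lower). With the replicate block it was 0 (0 higher, 0 lower), against 45 of all genes in place of 230; the mouse numbers share no stated origin, and same-numbered mice did not deviate together (r of 0.09, 0.01 and −0.09 across genes), so this pairing is a number only. Leaving out a mouse gave 0 to 3 members, 0 to 2 higher and 0 to 2 lower, and 91 to 163 of all genes. With any fold change 1 efflux gene was called. The uptake median was −0.13 with normexp, −0.22 with the filter on all 6 arrays, −0.0024 with no filter and −0.25 to −0.10 with a mouse left out. The efflux median was 0.0038 with 75th percentile scaling and −0.10 to 0.0503 with a mouse left out. Their difference was 0.0799 with normexp, 0.20 with the filter on all 6 arrays and −0.0184 with no filter. With no filter the 1 gene called was not among the 5. No call turned its direction. With 3 mice a group and a signal near background for Slc22a27, Slco4a1 and Abcb1b, the size of their changes is uncertain.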
